A study of Mus musculus with 22 samples.

Results

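The cerebellum of mice carrying the Tol transgene was compared with the cerebellum of wild-type (WT) littermates. The comparison holds 6 of the 22 RNA-sequencing libraries of the series, chosen by their labels. Of these, 2 were labelled Tol (Tol 1 and Tol 2) and 4 were labelled WT (WT 1 to WT 4). The gene lists used below were drawn up with earlier results of these data known. Tol mice were heterozygous for a long open reading frame of shuffled reporter and recombinase fragments, driven by the ubiquitous CAG promoter and inserted 3′ of Col1a1 in C57BL/6J embryonic stem cells, and WT littermates lacked it. Both groups were C57BL/6 mice, and the labels give neither their age nor the number of stem cell clones behind the line. The study asked whether the transgene product, which is thought to be unfolded, causes stress or other changes of gene expression in brain tissue. Poly(A) RNA from frozen tissue was sequenced, and the deposited estimated counts per gene were scaled with TMM factors to CPM, the counts of a gene relative to the size of its library. The labels name the replicates by number only. The paper's figure legend counts these data in mice, with more Tol mice than the labels list as cerebellum Tol libraries. The labels do not tie single libraries to mice. P-values here measure the spread between these libraries, which was larger than sampling noise in every pair within a group. With 2 libraries against 4, the smallest exact permutation p for any single value is 0.0667.

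The cerebellum is built around a few neuron types. Granule cells, the most numerous neurons of the brain, receive mossy fibers and excite Purkinje cells, whose inhibitory axons are the only output of the cerebellar cortex, and Bergmann glia wrap the Purkinje cell dendrites. Behind and below the cerebellum lie the choroid plexus of the fourth ventricle and the brainstem, and in front of it the tectum of the midbrain and, further on, the thalamus, so that a dissection can include more or less of these neighbors.

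The 6 libraries were of like depth, with 23340005 to 27057348 counts, and 3 counts corresponded to between 0.112 and 0.126 CPM. Mitochondrial genes took 5.55% to 8.74% of counts, with the highest share in Tol 2. Medians over bins of transcript length or GC content lay between -0.07 and 0.08 on the log2 scale in every library. The transgene itself was at 183.2 CPM (4628 counts) in Tol 1 and 138.7 CPM (3479 counts) in Tol 2, and each WT library held at most 1 count of it, so that all 6 genotype labels matched the transgene.

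Tol 2 stood apart from the other 5 libraries. Over the 16662 genes tested, the rank correlation of Tol 2 with the other 5 cerebellum libraries was 0.929 to 0.967, while the other 5 correlated with each other at 0.970 to 0.994. The rank correlation with the mean of the 4 WT cerebrum libraries was 0.959 for Tol 2 and 0.909 to 0.935 for the other 5. These are descriptions over genes, which share their library. A library can be set apart by the genes in which it lies more than 2-fold, on log2(CPM + 1), outside all other 5. Tol 2 lay above the other 5 in 435 genes (2.61% of those tested) and below them in 365 (2.19%). For Tol 1 these numbers were 1 (0.006%) and 8 (0.048%), for WT 3 they were 0 and 0, and for WT 1, WT 2 and WT 4 they ran from 2 to 40 above and from 3 to 11 below. Tol 2 was therefore described apart from Tol 1. Some comparisons of Tol with WT are given with and without Tol 2. The others are given with both Tol libraries only, and their counts of genes may depend on Tol 2.

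**Figure D1:**
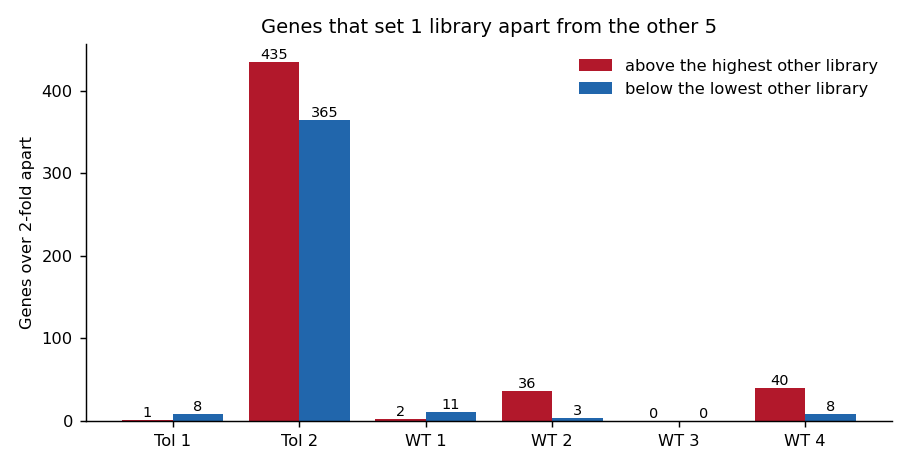
Bars show, for each cerebellum library, the number of genes more than 2-fold above the highest or below the lowest of the other 5 libraries, on log2(CPM + 1). Tol 2 has 435 genes above and 365 below, and no other library has more than 40 in either direction.

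Markers of the cerebellar cortex were low in the library labelled cerebellum Tol 2. In bulk tissue, fewer cells of a type and less RNA per cell cannot be told apart. The mean level of 18 granule cell genes, on log2(CPM + 1), was 8.16 in Tol 1, 4.48 in Tol 2 and 7.05 to 8.12 in WT. In Tol 2, 17 of the 18 were below every WT library, against 30.3% of all genes tested, and 1 was above, against 33.2%. In Tol 1, 10 of the 18 were above every WT library and 0 were below, against 21.9% and 19.3% of all genes. Gabra6, a GABA-A receptor subunit of granule cells, was at 737 CPM in Tol 1, 12.7 CPM in Tol 2, and 602, 320, 771 and 646 CPM in WT 1 to WT 4. Its level in Tol 2 was 2.17% of the WT mean, while Tol 1 lay within the WT range. Cbln3, the granule cell partner of the synapse organizer Cbln1, was at 1915 CPM in Tol 1, 30.5 CPM in Tol 2, against 701 to 1644 CPM in WT. Fat2, a protocadherin of parallel fibers, was at 1182, 21.97 and 470.5 to 1219 CPM in the same order, and Neurod1, a transcription factor of granule neuron differentiation, at 410, 7.70 and 177 to 411 CPM. Tol 2 was far below the WT range in all 4 of these genes, and Tol 1 was inside it for Gabra6, Fat2 and Neurod1 and above it for Cbln3.

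The vesicular glutamate transporter of granule cells, Slc17a7, was at 540 CPM in Tol 1, 19.3 CPM in Tol 2, against 248 to 517 CPM in WT. Barhl1, a homeobox gene of granule cell precursors that is also active in other parts of the brain, was the exception among the granule cell genes. It was at 24.6 CPM in Tol 2, above the 10.5 to 20.4 CPM of WT. Reln and Rbfox3, which many neurons express, were less reduced in Tol 2 than the rest of the list, at 34.4% and 47.9% of the WT mean, and the median member was at 7.49%.

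The 20 Purkinje cell genes had a mean level of 7.59 in Tol 1, 4.82 in Tol 2 and 6.35 to 7.51 in WT. In Tol 2, 18 of the 20 were below every WT library, against 30.3% of all genes, and 1 was above, against 33.2%. Pcp2, a Purkinje cell modulator of G proteins, was at 273 CPM in Tol 1, 10.4 CPM in Tol 2 and 220, 111, 253 and 246 CPM in WT 1 to WT 4. Car8, which binds the inositol trisphosphate receptor, was at 2121 CPM in Tol 1, 100.2 CPM in Tol 2, against 787 to 2016 CPM in WT, and that receptor, Itpr1, at 4948, 459.9 and 1970 to 5204 CPM. Each of these genes was lower in Tol 2 than in the lowest WT library, which was WT 2 each time. Foxp2, a forkhead factor of Purkinje cells and of many neurons outside the cerebellum, was at 94.2 CPM in Tol 2, 16.3 CPM in Tol 1, 47.3 CPM in WT 1 and 12.4 to 15.9 CPM in WT 2 to WT 4.

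Among the 12 Bergmann glia genes, 10 were below every WT library in Tol 2, against 30.3% of all genes, and 0 above, against 33.2%. Gdf10, a growth factor of Bergmann glia, was at 161 CPM in Tol 1, 7.46 CPM in Tol 2, against 70.3 to 153 CPM in WT. Slc1a3, the glutamate transporter that Bergmann glia hold in large amounts and that other astrocytes also express, was at 1800, 372 and 783 to 1625 CPM. The 14 astrocyte genes as a group lay close to WT in Tol 2, at a mean level of 7.64 against 7.40 to 7.81 in WT, with 5 members above every WT library and 5 below. The list of cerebellar interneuron genes was mixed. Pax2, a factor of Golgi and stellate interneuron precursors, was at 9.26 CPM in Tol 1, 8.45 to 10.4 CPM in WT and 0.24 CPM in Tol 2. The glycine transporter Slc6a5 was at 49.1 CPM in Tol 1 and 5.62 CPM in Tol 2, and the general GABA markers Gad1 and Slc32a1 were at 118% and 106% of the WT mean in Tol 2.

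**Figure D2:**
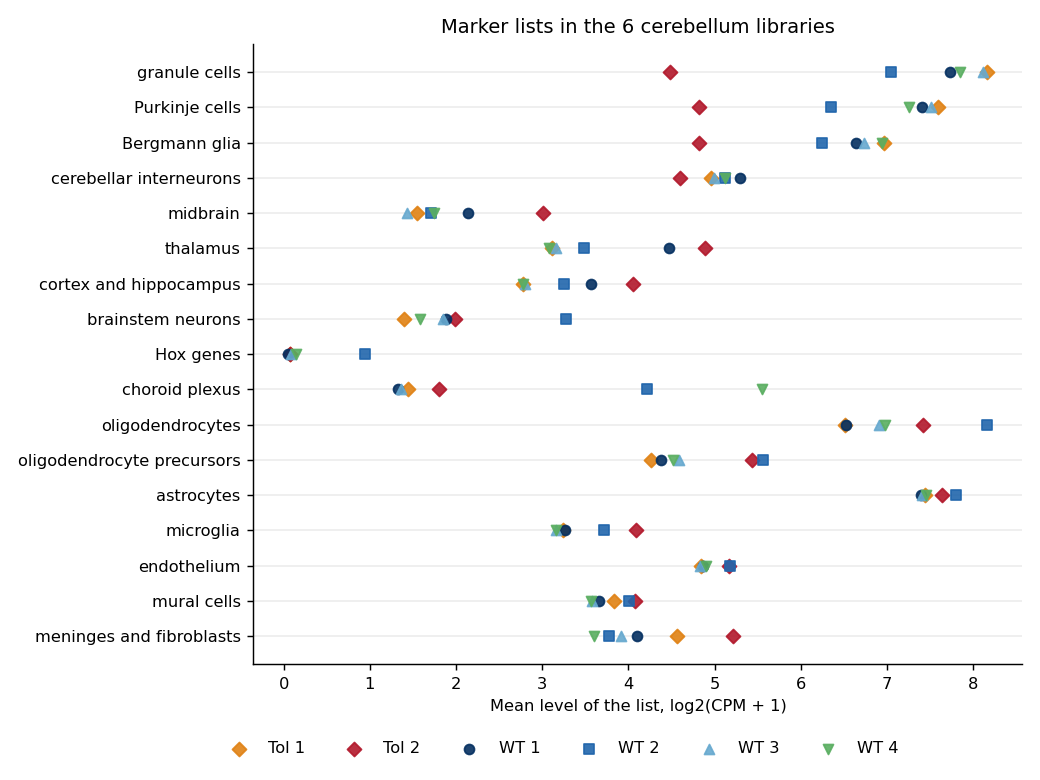
Each row is a list of marker genes and each point the mean level of its members, on log2(CPM + 1), in 1 of the 6 libraries. Tol 2 is lowest for granule cells, Purkinje cells, Bergmann glia and cerebellar interneurons. It is highest for the midbrain, thalamus, cortex and hippocampus, microglia, mural cell and meninges lists. For meninges, Tol 1 is also above all 4 WT libraries.

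Genes of the midbrain roof and of the thalamus were high in Tol 2. Of the 20 midbrain genes, 14 passed the filter on low counts, and 9 of these were above every WT library in Tol 2 and 4 below, against 33.2% and 30.3% of all genes. Pax7, a paired-box factor of the dorsal midbrain, was at 28.5 CPM in Tol 2, had no counts in Tol 1 and was at 0.12, 0.08, 0.04 and 0.08 CPM in WT 1 to WT 4. Each WT library thus held at most 3 counts of Pax7, and Tol 2 held 714. Pou4f1 and Pou4f2, POU-domain factors of tectal neurons, were at 16.8 and 22.7 CPM in Tol 2 and at most 1.89 and 3.11 CPM in any other library. Gata3 and Tal1, which act together in midbrain GABA neurons, were at 17.6 and 30.6 CPM in Tol 2 and at most 3.23 and 5.62 CPM in the others. In all 4 of the latter genes Tol 2 lay above the range of the other 5 libraries by more than 5-fold.

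The markers of the dopamine neurons of the ventral midbrain were near 0 in Tol 2. Slc6a3, the dopamine transporter, was at 0.36 CPM, Pitx3 at 0.12 CPM, Foxa1 at 0.04 CPM, and Foxa2 had no counts. The highest WT library was at 0.084 CPM for Slc6a3 and 0.040 CPM for Pitx3. Tol 2 was thus above every WT library in these genes, at very low counts. Th, which makes the dopamine precursor, was at 2.71 CPM in Tol 2, 6.85 CPM in Tol 1, against 3.03 to 6.04 CPM in WT. En2, a homeobox gene that both midbrain and cerebellum express, was at 20.2 CPM in Tol 2 against 63.3 to 133 CPM in WT. The library labelled cerebellum Tol 2 thus held the dorsal and GABA neuron members of the midbrain list. The dopaminergic members were near 0 in it, apart from Th, which was below WT.

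The 16 thalamus genes showed 1 WT library beside Tol 2. Their mean level was 4.89 in Tol 2, 3.11 in Tol 1 and 3.07 to 4.47 in WT, where WT 1 was highest. Of the 15 that passed the filter, 10 were above every WT library in Tol 2 and 3 below, against 33.2% and 30.3% of all genes. Tcf7l2, a Wnt effector of thalamic and other diencephalic neurons, was at 271 CPM in Tol 2 and 129 CPM in WT 1, and at 4.35 CPM in Tol 1, against 4.18 to 6.14 CPM in WT 2 to WT 4. Shox2, a homeobox gene of thalamus and tectum, was at 72.4 CPM in Tol 2, 28.8 CPM in WT 1 and at most 0.97 CPM elsewhere. Six3 was at 26.9 CPM in Tol 2, 15.4 CPM in WT 1 and at most 0.12 CPM elsewhere, and Tfap2d, a midbrain member, at 26.6 CPM in Tol 2, 13.3 CPM in WT 1 and at most 0.04 CPM elsewhere. All 4 of these genes were highest in Tol 2 and next highest in WT 1, with a wide gap to the other 4 libraries. In those 4, Six3 and Tfap2d were near the limit of detection and Tcf7l2 was not. Gbx2, an early factor of the developing thalamus, was at 0.08 CPM in Tol 2 and had no counts in WT 1. WT 1 nonetheless kept its cerebellar genes, with Gabra6 at 602 CPM.

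The cortex and hippocampus, striatum and hypothalamus lists also had a higher mean level in Tol 2 than in any WT cerebellum library. The olfactory bulb list had a lower one, at 1.997 in Tol 2 against 2.097 to 2.184 in WT. Summed CPM of Tol 2 lay inside the WT range for cortex and hippocampus, at 1465 against 783 to 1630. It did so for the striatum, at 466 against 380 to 483, and lay above for the hypothalamus, at 40.9 against 16.0 to 32.0. The hypothalamus level was low, at 0.885 in Tol 2 against 0.454 to 0.715 in WT, and 8 of the 20 members were tested. Of these 8, 2 were above every WT library in Tol 2 and 2 below, against 33.2% and 30.3% of all genes. In Tol 2, 5 of the 20 had under 3 counts. The cortex and hippocampus list was at a mean level of 4.05 in Tol 2, 2.78 in Tol 1 and 2.78 to 3.56 in WT, below the 6.61 to 6.84 of WT cerebrum, and 10 of its 18 tested members were above every WT library in Tol 2 and 3 below, against 33.2% and 30.3% of all genes. The striatum list was at 4.32 in Tol 2, 3.05 in Tol 1 and 2.98 to 3.72 in WT, with 10 of 14 tested members above and 3 below. Single members differed. Emx1 was at 0.12 CPM and Fezf2 had no counts in Tol 2. Nrgn and Camk2a, postsynaptic genes of forebrain neurons that are also expressed elsewhere, were at 322 and 537 CPM in Tol 2, 157 and 278 CPM in WT 1, and at most 5.30 and 114 CPM in the other 4 libraries. The Hox genes, which mark hindbrain and spinal cord, had a mean level of 0.07 in Tol 2, and 14 of the 22 had no counts.

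The Hox genes were instead a feature of WT 2. Hoxb3 was at 6.18 CPM in WT 2 and at most 0.25 CPM in the other 5 libraries, and Hoxd3 at 4.12 CPM and at most 0.08 CPM. Slc6a5, the glycine transporter, was at 198 CPM in WT 2 and 46.1 to 58.5 CPM in the other WT libraries. Slc17a6, the vesicular glutamate transporter of brainstem, midbrain and thalamus, was at 2.73 CPM in Tol 1, 509.9 CPM in Tol 2 and 175, 204, 30.7 and 16.5 CPM in WT 1 to WT 4. It was thus present in every WT library and lowest in Tol 1, and the libraries can be ordered by it from Tol 1 through WT 4, WT 3, WT 1 and WT 2 to Tol 2.

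Choroid plexus genes split the WT group in another way. Ttr, the thyroxine carrier of the choroid plexus, was at 2.06 CPM in Tol 1, 0.32 CPM in Tol 2, and 0.44, 1157, 3.02 and 4143 CPM in WT 1 to WT 4. Kcne2, a potassium channel subunit of the same epithelium, was at 12.7 CPM in WT 2, 43.8 CPM in WT 4 and at most 0.12 CPM elsewhere. Both Tol libraries and WT 1 and WT 3 were thus without a sizeable choroid plexus part, and no difference of a choroid plexus gene between the groups can be read apart from the makeup of WT 2 and WT 4.

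**Figure D3:**
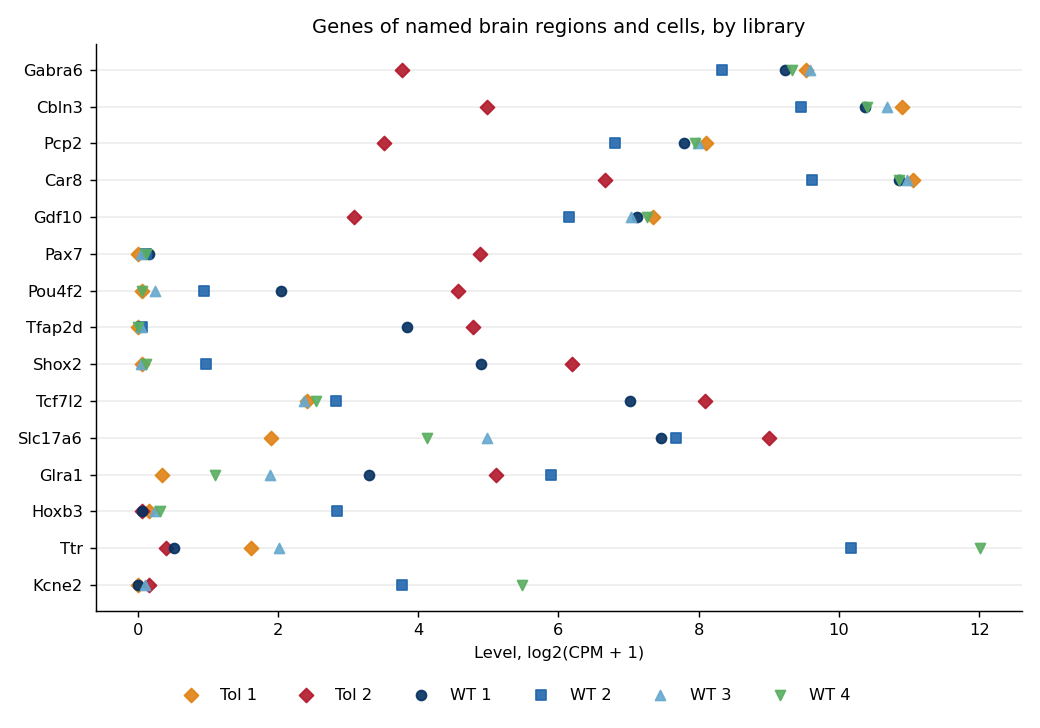
Points give the level of single genes in each of the 6 libraries on log2(CPM + 1), ordered from cerebellar genes at the top through midbrain, thalamus and brainstem genes to choroid plexus genes. Tol 2 is lowest in the 5 cerebellar genes and highest in the 6 genes from Pax7 to Slc17a6, with WT 1 next in Tfap2d, Shox2 and Tcf7l2, and WT 2 and WT 4 stand apart in Ttr and Kcne2.

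Glial lists were higher in Tol 2 than in most WT libraries. All 14 microglia genes were above every WT library in Tol 2, against 33.2% of all genes, and 0 were so in Tol 1. Csf1r, the receptor on which microglia depend for survival, was at 29.4 CPM in Tol 1, 57.8 CPM in Tol 2 and 29.9, 48.5, 28.6 and 28.0 CPM in WT 1 to WT 4. The second highest library was WT 2, and the level of all 14 genes in WT cerebrum, at 4.43 to 4.74 on the log2 scale, was above the 4.09 of Tol 2. Myelin genes were highest in WT 2. Mbp, myelin basic protein, was at 1946 CPM in Tol 1, 3976 CPM in Tol 2 and 2120, 7290, 2723 and 2941 CPM in WT 1 to WT 4. Of the 20 oligodendrocyte genes, 8 were below every WT library in Tol 1, against 19.3% of all genes, and 0 in Tol 2, against 30.3%.

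The 15 genes by which Tol 2 lay farthest above the other 5 libraries, among genes with a mean of at least 5 CPM, were led by Col25a1, Doc2a, Glra3, Fibcd1 and Baiap3. Col25a1, a transmembrane collagen of neurons, was at 120.1 CPM in Tol 2, 3.76 CPM in Tol 1 and 8.45, 8.32, 2.28 and 1.08 CPM in WT. Camkv, a kinase-like protein of synaptic vesicles, was at 187 CPM in Tol 2, 37.0 CPM in WT 1, 11.9 CPM in WT 2 and at most 3.81 CPM in the other 3 libraries. Slit1, a guidance cue for axons, was at 74.4 CPM in Tol 2, 10.2 CPM in WT 1, 12.8 CPM in WT 2 and at most 1.64 CPM elsewhere. WT 1 and WT 2 were between Tol 2 and the other 3 libraries in each of these genes. The 15 farthest below were all at most 6.19% of the WT mean in Tol 2 and included Crtam, Il16, Dao, Cnpy1 and Mybpc3 beside the granule and Purkinje cell genes named above.

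**Figure D4:**
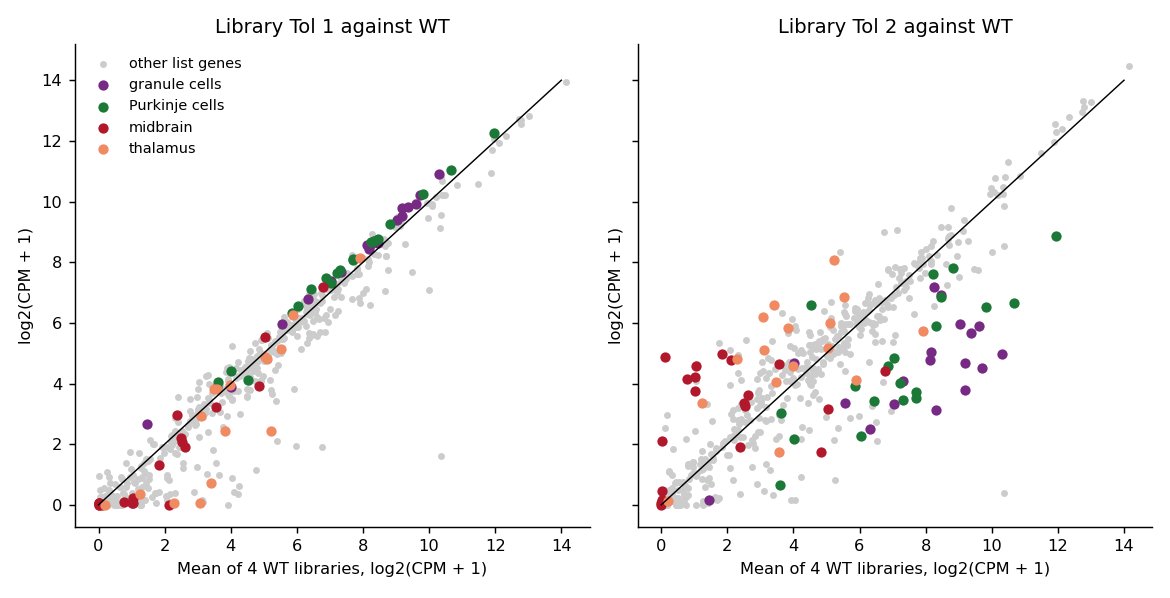
Each point is a gene of the lists, with its mean over the 4 WT libraries on the horizontal and its level in Tol 1 (left) or Tol 2 (right) on the vertical axis, both as log2(CPM + 1), and a line at equal levels. Most granule and Purkinje cell genes lie on or above the line in Tol 1 and below it in Tol 2, where most midbrain and thalamus genes lie above it.

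Tol 1 resembled WT 3 most, with a rank correlation of 0.994. The genes by which it stood above all other libraries had modest gaps. Galnt15, a glycosyltransferase, was at 100.7 CPM in Tol 1, against 36.8 to 61.7 CPM in WT. The genes in which it was lowest were Slc17a6, Kcnc2, Meis2, Arhgdig, Elfn1 and Htr2c. Meis2, a homeobox cofactor, was at 1.54 CPM in Tol 1, 173 CPM in Tol 2 and 57.8, 68.5, 7.84 and 4.84 CPM in WT, and Kcnc2, a potassium channel of fast-firing neurons, at 2.06, 207 and 74.1, 69.8, 9.71 and 6.20 CPM. In both genes, as for Slc17a6, WT 4 and then WT 3 were nearest to Tol 1, WT 1 and WT 2 were higher, and Tol 2 was highest.

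With both Tol libraries against the 4 WT libraries, 0 of 16662 genes (0%) had an adjusted p under 0.05 in edgeR's quasi-likelihood test, and the lowest edgeR adjusted p was 0.957. At an unadjusted p under 0.05 stood 527 genes, 324 higher in Tol (1.94% of those tested) and 203 lower (1.22%). DESeq2 called 8 genes (0.048%), namely Mrc2, Tmem132e and Rps15a as higher and Mid1, Nr4a3, Per1, Dusp6 and Gm47283 as lower. Without Tol 2, where the lone Tol library was assumed to vary like the others, 0 genes (0%) passed, and 157 (0.919%) were higher and 195 (1.14%) lower at an unadjusted p under 0.05. Without Tol 1, 2 genes passed (0.0116%), Pax7 as higher and Pax2 as lower. The biological coefficient of variation was 33.2% with both Tol libraries and 25.6% without Tol 2. Genes with no overlap between the groups numbered 1032 with both Tol libraries above all 4 WT (6.19%) and 763 with both below (4.58%).

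Mrc2, an endocytic receptor for collagen, was at 11.6 CPM in Tol 1, 12.7 CPM in Tol 2, and 7.06, 6.98, 6.98 and 7.53 CPM in WT 1 to WT 4, with no overlap and a narrow range in both groups. Its log2 fold change was 0.77 (standard error 0.13, edgeR unadjusted p = 0.000896, adjusted p = 0.957), and DESeq2 gave an adjusted p of 0.00912. Tmem132e, a membrane protein of neurons, was at 25.8 and 24.4 CPM in Tol against 15.4 to 17.2 CPM in WT. Rps15a, a protein of the small ribosomal subunit, was at 129 and 135 CPM in Tol against 98.9 to 105 CPM in WT. Bmp4, a bone morphogenetic protein, was at 2.97 and 3.31 CPM in Tol against 1.31 to 1.51 CPM in WT, and Rbp4, the carrier of retinol, at 4.16 and 4.43 CPM in Tol against 1.03 to 1.87 CPM in WT. In these 5 genes both Tol libraries were above all 4 WT libraries and close to each other. The genes were named for a low p or a DESeq2 call, which favors genes with narrow groups, so this closeness follows from their choice.

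Genes of meninges and fibroblasts were higher in both Tol libraries. These cells line the surface of the brain and the larger vessels and make its fibrillar collagens. The mean level of the 14 genes was 4.56 in Tol 1, 5.22 in Tol 2 and 4.10, 3.78, 3.92 and 3.61 in WT 1 to WT 4. Of the 14, 12 were above all 4 WT libraries in both Tol libraries, against 6.19% of all genes, and 12 had an unadjusted p under 0.05 with the higher level in Tol, against 1.94% of all genes. Without Tol 2 this number was 5, against 0.919% of all genes. The median log2 fold change over the list was 1.28, or 0.66 without Tol 2, against 0.01 and -0.02 over all genes tested. No member had an edgeR adjusted p under 0.957, so no single gene of the list was called.

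Col1a1, which encodes the main chain of type I collagen and lies beside the transgene, was at 22.4 CPM in Tol 1, 68.7 CPM in Tol 2, and 15.7, 16.2, 13.6 and 12.3 CPM in WT 1 to WT 4. Its log2 fold change was 1.66 (standard error 0.40, edgeR unadjusted p = 0.00605, adjusted p = 0.957), and 0.63 without Tol 2 (unadjusted p = 0.0166 in edgeR). Col1a2, the partner chain, which is encoded on another chromosome, was at 42.4 and 83.2 CPM in Tol against 26.2 to 32.6 CPM in WT. Col3a1, type III collagen, was at 14.8 and 41.3 CPM in Tol against 7.40 to 10.8 CPM in WT. All 3 collagen genes were above the WT range in Tol 1 and farther above it in Tol 2. The small proteoglycans Dcn, Ogn and Fmod had the same order. Dcn was at 32.6 and 37.2 CPM in Tol against 19.3 to 26.0 CPM in WT, Ogn at 18.6 and 26.6 CPM in Tol against 5.67 to 11.6 CPM in WT, and Fmod at 36.6 and 58.5 CPM in Tol against 6.66 to 24.0 CPM in WT. Ptgds, the prostaglandin D synthase that meninges secrete, was at 808 and 1315 CPM in Tol against 195 to 537 CPM in WT. The exceptions on the list were Lum, at 3.68 and 6.14 CPM in Tol against 2.31 to 6.87 CPM in WT, and Igf2, at 141 and 195 CPM in Tol against 81.2 to 198 CPM in WT. For both of these, WT 4, which held choroid plexus genes, was the highest library.

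Mural and endothelial genes, which mark the vessel wall, moved less than the meninges list, with a median log2 fold change of 0.38 and 0.13. Of the 12 mural cell genes, 2 had an unadjusted p under 0.05 with the higher level in Tol, Anpep and Pdgfrb. Of the 15 endothelial genes 1 had such a p, against 1.94% of all genes. Both Tol libraries were above all 4 WT libraries in 3 mural and 1 endothelial genes, against 6.19% of all genes. Pdgfrb, the receptor of pericytes, was at 33.9 and 41.3 CPM in Tol against 24.98 to 32.2 CPM in WT. The red blood cell genes had a mean level of 4.46 in Tol 1, 4.02 in Tol 2 and 3.66 to 4.43 in WT. The part of surface tissue in the level of the collagen genes was not tested.

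Several inducible genes were lower in both Tol libraries. Of 16 genes induced by glucocorticoids, 7 had an unadjusted p under 0.05 with the lower level in Tol, against 1.22% of all genes, and 8 were below all 4 WT libraries in both Tol libraries, against 4.58%. Without Tol 2, the number with the lower level was 6, against 1.14%. The median log2 fold change of the list was -0.50, and -0.66 without Tol 2. The mean level was 4.38 in Tol 1, 4.48 in Tol 2 and 4.84, 5.13, 4.79 and 4.84 in WT 1 to WT 4.

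Per1, a clock repressor that glucocorticoids also induce, was at 47.3 CPM in Tol 1, 48.4 CPM in Tol 2, and 92.6, 77.8, 84.8 and 95.4 CPM in WT 1 to WT 4. On the log2 scale Per1 was lower in Tol by a fold change of -0.87 (standard error 0.12, edgeR unadjusted p = 0.000298, adjusted p = 0.957; DESeq2 adjusted p = 1.12e-06). Sgk1, a kinase induced by corticosteroids, was at 51.2 and 41.1 CPM in Tol against 74.8 to 146 CPM in WT. Cdkn1a, the cell cycle inhibitor p21, was at 18.1 and 6.46 CPM in Tol against 27.6 to 32.8 CPM in WT. Tsc22d3, which encodes the leucine zipper protein GILZ, was at 75.1 and 90.0 CPM in Tol against 104 to 139 CPM in WT. The metallothioneins Mt1 and Mt2, which bind zinc and are induced by metals and steroids, were at 87.4 and 91.4 CPM and at 49.7 and 51.8 CPM in Tol, against 104 to 153 CPM and 72.5 to 98.0 CPM in WT. For these 6 genes no Tol library reached the lowest WT library. Fkbp5, a strongly inducible chaperone of the glucocorticoid receptor, did not follow. It was at 7.09 CPM in Tol 1, 21.2 CPM in Tol 2, against 6.49 to 13.9 CPM in WT, and Klf9, another target, was at 185 and 111 CPM in Tol against 150 to 206 CPM in WT.

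Of 18 immediate early genes, 3 had an unadjusted p under 0.05 with the lower level in Tol, Nr4a3, Dusp1 and Fosl2, and 1 with the higher, Ier5, against 1.22% and 1.94% of all genes. Nr4a3, an orphan nuclear receptor of the early response, was at 9.66 CPM in Tol 1, 4.78 CPM in Tol 2, and 45.2, 33.4, 30.7 and 51.0 CPM in WT 1 to WT 4. For Nr4a3 the log2 fold change was -2.47 (standard error 0.38, edgeR unadjusted p = 0.000598, adjusted p = 0.957; DESeq2 adjusted p = 4.22e-07) and -2.06 without Tol 2. Nr4a2, its relative, was at 13.97 and 2.35 CPM in Tol against 22.9 to 36.2 CPM in WT. Dusp1, a phosphatase that ends MAP kinase signaling, was at 30.1 and 23.9 CPM in Tol against 35.6 to 49.6 CPM in WT, and Dusp6, another of this family, at 17.6 and 18.2 CPM in Tol against 24.0 to 26.6 CPM in WT. Both Tol libraries were below every WT library in these 4 genes. Fos, the best known of the early genes, was at 16.2 CPM in Tol 1 and 30.1 CPM in Tol 2 against 20.3 to 49.97 CPM in WT, and Egr1 at 53.8 and 94.8 CPM against 27.4 to 83.9 CPM. Fos in Tol 2 and Egr1 in Tol 1 lay within the WT range, and the list as a whole did not move one way.

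Nr4a3, Nr4a2, Per1 and Dusp1 have a known dependence on cyclic AMP, whose response element holds the letters TGACG, and the promoter windows are printed here because the genes were low in both Tol libraries, a choice made after their values were seen. Each window is a RefSeq sequence on GRCm38.p6 of 300 bases, 250 before and 50 after the start site, with TGACG on either strand (TGACG or CGTCA) in capitals. Nr4a3 lies at chr4:48045055-48045354 (plus strand), Nr4a2 at chr2:57123954-57124253 (minus strand), Per1 at chr11:69098699-69098998 (plus strand, the first of its 2 listed windows) and Dusp1 at chr17:26508423-26508722 (minus strand).
Nr4a3: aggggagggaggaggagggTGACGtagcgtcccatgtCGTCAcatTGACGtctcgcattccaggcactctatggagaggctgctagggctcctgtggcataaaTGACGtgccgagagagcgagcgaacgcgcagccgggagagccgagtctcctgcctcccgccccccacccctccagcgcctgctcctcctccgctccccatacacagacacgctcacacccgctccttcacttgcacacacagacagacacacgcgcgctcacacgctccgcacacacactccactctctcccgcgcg
Nr4a2: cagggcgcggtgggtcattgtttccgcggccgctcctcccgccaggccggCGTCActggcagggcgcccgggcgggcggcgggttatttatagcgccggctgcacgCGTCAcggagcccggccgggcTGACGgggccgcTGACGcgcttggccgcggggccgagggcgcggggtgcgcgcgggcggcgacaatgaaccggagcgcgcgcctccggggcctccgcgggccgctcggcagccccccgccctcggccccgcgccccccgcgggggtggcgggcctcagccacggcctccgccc
Per1: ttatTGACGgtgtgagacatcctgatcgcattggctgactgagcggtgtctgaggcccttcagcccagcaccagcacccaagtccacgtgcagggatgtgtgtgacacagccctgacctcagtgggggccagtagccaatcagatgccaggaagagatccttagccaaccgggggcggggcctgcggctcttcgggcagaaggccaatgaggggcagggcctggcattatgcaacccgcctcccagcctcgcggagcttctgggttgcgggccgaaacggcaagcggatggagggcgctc
Dusp1: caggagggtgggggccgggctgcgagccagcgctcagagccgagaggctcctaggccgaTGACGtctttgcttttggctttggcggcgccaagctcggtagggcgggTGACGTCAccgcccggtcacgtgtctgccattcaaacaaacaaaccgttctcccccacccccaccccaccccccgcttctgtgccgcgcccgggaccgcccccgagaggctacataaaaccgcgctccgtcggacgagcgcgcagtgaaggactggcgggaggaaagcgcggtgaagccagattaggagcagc
The Nr4a3 and Nr4a2 windows held 4 matches each, Dusp1 held 3 and Per1 held 1. The full palindrome TGACGTCA was found in Dusp1, where its strands make up 2 of the 3 matches, and in none of the other 3. Of all 32851 promoter windows, 20.8% held at least 1 match, 1.03% at least 3, 0.231% at least 4, and 1.79% the palindrome. These matches describe the letters and are not shown to be bound sites. Windows of the other low genes, and of Fos and Egr1, are not reported here.

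**Figure D5:**
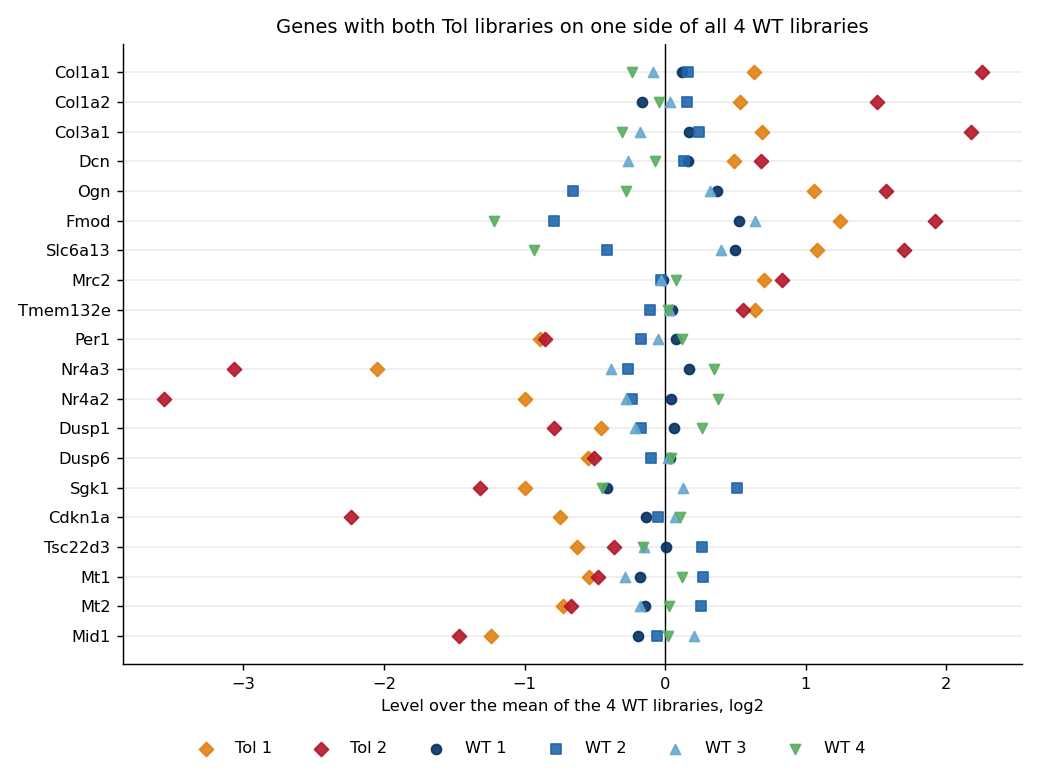
Points give the level of each gene in each library relative to the mean of the 4 WT libraries, on the log2 scale. In the 9 genes at the top both Tol libraries are above all 4 WT libraries, and in the 11 genes at the bottom both are below them, from Per1, with 47.3 and 48.4 CPM in Tol against 77.8 to 95.4 CPM in WT, to Mid1.

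Of the 18 clock genes, 2 had an unadjusted p under 0.05 with the higher level in Tol and 1, Per1, with the lower, against 1.94% and 1.22% of all genes. The higher 2 were Dbp and Tef, which encode rhythmic transcription factors of 1 family. Dbp was at 42.0 and 44.6 CPM in Tol against 26.8 to 35.1 CPM in WT, and Tef at 285 and 280 CPM in Tol against 203 to 243 CPM in WT. Arntl, which encodes BMAL1, was at 58.9 CPM in Tol 1, 30.3 CPM in Tol 2, against 36.5 to 57.6 CPM in WT. The time of day at which tissue was taken was not given in the labels, and its part in these levels was not tested.

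Mid1 had the lowest p of all genes. Mid1 encodes a microtubule-bound ubiquitin ligase and spans the boundary of the pseudoautosomal region of the C57BL/6 X chromosome. It was at 17.5 CPM in Tol 1, 14.95 CPM in Tol 2, and 36.2, 39.7, 47.7 and 41.9 CPM in WT 1 to WT 4, so that the highest Tol library was below the lowest WT library by more than 2-fold. Its log2 fold change was -1.35 (standard error 0.15, edgeR unadjusted p = 0.000105, adjusted p = 0.957; DESeq2 adjusted p = 2.47e-09). Gm47283, annotated on Y, was at 21.1 and 21.3 CPM in Tol and 40.7, 42.8, 79.1 and 70.2 CPM in WT, and Gm21887, annotated on X, at 7.40 and 9.61 CPM in Tol against 18.3 to 40.5 CPM in WT. Transcripts of this pair share sequence, with 62.0% of the 31-base words of Gm21887 also found in other genes, so that reads could be split between them. Their summed level was 28.5 and 30.9 CPM in Tol against 59.4 to 120 CPM in WT. Of the words of Mid1, 16.4% were shared. Ddx3y, a Y-linked gene, was at 0.04 to 0.36 CPM in all 6 libraries and set none of them apart.

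The mitochondrial gene mt-Nd3 and the nuclear Gm28437 were low and high in both Tol libraries, and both have near-identical copies. mt-Nd3, which encodes a subunit of respiratory complex I, was at 204 and 216 CPM in Tol and 1252, 695, 387 and 499 CPM in WT 1 to WT 4. Of its 31-base words, 98.1% were shared, mostly with the nuclear copy Gm28438, which was at 557 and 724 CPM in Tol against 365 to 589 CPM in WT. Summed, this pair was at 761 and 940 CPM in Tol against 937 to 1617 CPM in WT, and the groups overlapped. Gm28437 was at 85.1 and 180 CPM in Tol against 1.16 to 37.4 CPM in WT, and every word of it was shared with other genes, most often with mt-Co3. Summed, Gm28437 and mt-Co3 were at 6622 and 9016 CPM in Tol against 5965 to 7833 CPM in WT, and the groups overlapped. None of the other 12 mitochondrial genes had an unadjusted p under 0.05.

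Few genes had a low p in the lists that report on protein stress, where the share over all genes was low too. The unfolded protein response list was at a mean level of 5.601 in Tol 1, inside the WT range of 5.57 to 5.74, and at 5.48 in Tol 2, below it. In Tol 2, 12 of its 30 members were below every WT library and 5 above, against 30.3% and 33.2% of all genes. The heat shock list was at 6.215 in Tol 1, just below the WT range of 6.229 to 6.59, and at 6.43 in Tol 2, inside it, and 7 of its 18 members were below every WT library in Tol 1 and 0 above, against 19.3% and 21.9% of all genes. Of 30 genes of the unfolded protein response, 0 had an unadjusted p under 0.05 with the higher level in Tol and 1 with the lower, Atf3. The shares over all genes were 1.94% and 1.22%. The median log2 fold change of the list was -0.08. Hspa5, the chaperone BiP of the endoplasmic reticulum, was at 256 CPM in Tol 1, 243 CPM in Tol 2, against 240 to 356 CPM in WT. Ddit3, which encodes the factor CHOP, was at 20.9 and 19.2 CPM in Tol against 15.6 to 21.8 CPM in WT. Neither gene left the WT range in either Tol library. Of 18 heat shock genes, 0 were higher and 1, Bag3, lower at an unadjusted p under 0.05, against 1.94% and 1.22% of all genes. Hspa8, the constitutive cytosolic chaperone, was at 1502 CPM in Tol 1, 1850 CPM in Tol 2, against 1727 to 2060 CPM in WT. The interferon list had 1 member lower and 0 higher, the NRF2 list 1 higher and 0 lower, and the p53 list 1 lower, Cdkn1a, and 0 higher. Beside shares of 1.94% and 1.22%, counts of 0 or 1 in lists this short say little about stress either way.

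Banp and Ildr2 were chosen from earlier results on this series, and neither had an edgeR adjusted p under 0.957 in cerebellum. Banp, a nuclear protein that binds unmethylated DNA, was at 20.3 CPM in Tol 1, 10.05 CPM in Tol 2, and 25.7, 22.7, 33.1 and 29.5 CPM in WT 1 to WT 4, so that both Tol libraries were below all 4 WT libraries. Its log2 fold change was -0.87 (standard error 0.31, edgeR unadjusted p = 0.0309, adjusted p = 0.957), and -0.46 without Tol 2. Ildr2, a membrane protein of the immunoglobulin family, was at 15.8 CPM in Tol 1, 80.9 CPM in Tol 2, and 29.0, 22.5, 9.04 and 9.64 CPM in WT 1 to WT 4. The log2 fold change of Ildr2 was 1.46 (standard error 0.73), and -0.16 without Tol 2, so that its direction rested on Tol 2. Of the genes named here, Banp, Ildr2, Mid1, Mt2, Cdkn1a, Dusp1, Dbp, Tef, Bmp4, Pcp2, Itpr1, Csf1r, Baiap3, Doc2a, Shox2, Six3 and Tfap2d are among those that overlap an exon annotated on the other strand, and Neurod1, Gata3, Hoxd3, Igf2 and Ddit3 overlap exons on both. Col3a1 and Hspa8 overlap an exon of another gene on their own strand. Whether the counting used strand was not given in the sources used here, so the counts of these genes are uncertain to that extent.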

How the data were processed

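Frozen cerebellum was lysed and poly(A) RNA was sequenced as stranded, single-end libraries. To quantify reads, the authors used Salmon 0.14.1 with transcripts of build GRCm38 plus that of Tol, named edgeR 3.9 for their own tests, and deposited estimated counts (expected counts) per Ensembl gene. These were whole numbers, so no rounding was needed. Whether the quantification used strand was not given in the sources used here. The sample labels of the series list cerebellum Tol replicates 1 and 2 only, and both were analysed.

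Symbols came from the gene annotation of the same build and matched 34530 of 34584 identifiers. The transgene row stayed out of the tests and was part of the library size behind CPM. Genes were kept by edgeR's filter on low counts (16662 genes), scaled with TMM factors and tested with edgeR 4.0.16 (R 4.3.3) by quasi-likelihood on the 6 cerebellum libraries, with Benjamini-Hochberg adjustment at 0.05. DESeq2 1.42.0, other scalings and filters, a fit of all 22 libraries, a replicate block and leaving out each library were alternatives. The edgeR step was tested on simulated data. Levels are log2(CPM + 1), with a pseudocount of 1 CPM, and depth (23340005 to 27057348 counts) limits the lowest values to counting error of a few reads. No pair of libraries within a group agreed within sampling noise, and each library counted as 1 replicate.

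The members and the 34 gene lists were chosen with earlier results of these data known. Genes were named by rule: the 12 lowest p in each direction, the 15 largest gaps of Tol 2 and the 6 of Tol 1 in each direction with a mean of at least 5 CPM, the 10 with both Tol libraries farthest outside WT, the highest and most changed members of each list, and Banp, Ildr2 and Col1a1. Not all genes the rule chose are printed, some genes are not reported here, and other list members, Gm28438, Ddx3y and the 4 promoters were chosen after their values were seen.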

Additional observations from a re-analysis of the deposited data

Results flagged for a closer look

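For each list of genes and each gene named above, the 4 WT libraries were searched for 1 library whose gap to its nearest neighbor was large against the range of all 4 (Dixon's criterion at 95%). Of 150 such groups of 4, 24 were marked, and about 1 in 20, or 7.5, would be by chance alone. Groups of genes from 1 library are not independent of each other.

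WT 2 stood above the other WT libraries in 5 list levels on log2(CPM + 1). The Hox genes were at 0.944 (next library 0.143), the astrocyte genes at 7.805 (7.451), the pituitary and pineal genes at 0.925 (0.567), the glucocorticoid genes at 5.128 (4.842) and the NRF2 targets at 5.645 (5.431). The unfolded protein response list stood out in WT 4, at 5.741 (5.592).

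Among single genes, WT 2 was apart from the other WT libraries in genes of the brainstem and of glia. Slc6a5 was at 198 CPM there, Hoxb3 at 6.18 CPM and Hoxd3 at 4.12 CPM. Mbp was at 7290 CPM in WT 2 and Csf1r at 48.5 CPM, and both were highest there. Car8, at 787 CPM, and Arntl, at 36.5 CPM, were lowest in WT 2. Gbx2, at 0.50 CPM, and Slc6a3, at 0.084 CPM, were highest in WT 2 but near the limit of detection.

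WT 1 was apart in genes of thalamus and midbrain. Tcf7l2 was at 129 CPM in WT 1, Shox2 at 28.8 CPM, Six3 at 15.4 CPM, Tfap2d at 13.3 CPM, Nrgn at 157 CPM, Foxp2 at 47.3 CPM and Gata3 at 3.23 CPM. Pitx3, at 0.040 CPM, rested on 1 count. Mrc2 was highest in WT 4, at 7.53 CPM, within a narrow WT range.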

How the results depend on the processing

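The adjusted edgeR count was 0 under every alternative of normalization, filter and moderation, and 8 with DESeq2. Leaving out 1 WT library in turn, it stayed at 0. Leaving out Tol 1 or Tol 2 left a lone Tol library, whose count cannot speak for the group. The count at an unadjusted p under 0.05, 527, became 2082 when all 22 libraries shared 1 estimate of the spread, and ranged from 307 (without WT 4) to 3987 (without Tol 1) with 1 library left out. The 1795 genes without overlap between the groups became 2721 without WT 1 and 3123 without WT 2, 6855 without Tol 2 and 10582 without Tol 1; the range was 2168 to 10582. Tol 2 lay above the other libraries in 436 to 742 genes and below them in 367 to 611 with 1 library left out, the most being without WT 2. With a pseudocount of 0.1 CPM, the level of Tol 2 against WT turned to 0.128 for the olfactory bulb list and to 0.083 for skeletal muscle genes. The fold change of Ildr2 ranged from -0.16 without Tol 2 to 2.20. The cause of these shifts was not tested, beyond the change in the libraries or values that enter.

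Whether the replicate numbers mark pairs, such as littermates, was not given in the labels. Same-numbered libraries deviated from their group means with a correlation of -0.214 for number 1 and 0.681 for number 2. As the Tol group holds only Tol 1 and Tol 2, their deviations mirror each other. The correlations are therefore not separate and cannot decide on a pairing, and the numbers were not taken as pairs. With the replicate block, 0 genes had an adjusted p under 0.05 and 195 an unadjusted one, and the meninges members with such a p fell from 12 to 2. Of 169 fold changes of named genes under all alternatives, 160 kept their direction and side of the threshold. Of 476 list levels, 464 moved by less than the spread between WT libraries. Leaving out Tol 1 or Tol 2 for the genes without overlap, the levels of lists in Tol 1, the 2 counts of list members and the fold changes of single genes were added after seeing the data.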
